A study of Mus musculus with 2 samples.

Results

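The cells described here are hypoxic macrophages: the 718 of 14351 tumor mononuclear phagocytes (5%) in which 5 genes of the response to low oxygen took the largest share of the transcripts. The genes were Bnip3, Ndrg1, Slc2a1, Vegfa and Ankrd37. Their counts of unique molecular identifiers (UMIs, each standing for 1 captured transcript) were summed per cell and divided by all UMIs of that cell, cells of both genotypes were ranked together, and the top 5% were taken as members. Because the members were chosen by a measured value, every difference between them and the remaining 13633 cells is a description without a test. The cells came from B16 melanoma tumors, grown from a transplanted mouse melanoma line and 500 to 1000 mm3 at resection, and were sorted as MerTk+ CD64+ cells, which are mature macrophages by surface phenotype. One droplet library was made from C57Bl/6 mice that carry Fcmr (Fcmr+/+), and 1 from C57Bl/6 mice that lack it (Fcmr-/-). Fcmr encodes a receptor for IgM. How many mice each library pools, and their age, are not given in the sources used here, so a genotype is 1 sample, genotype and library cannot be told apart, and intervals (exact, 95%) cover counting error only. Fcmr itself had 0 UMIs in Fcmr+/+ members, which at 3 counts allows up to 0.841 UMIs per 1000000 (CPM), and 2 UMIs in Fcmr-/- members, with 7 and 4 UMIs in the remaining cells of each library. These counts are too few to check either genotype.

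Cells sense oxygen through prolyl hydroxylases of the Egln family, which use oxygen to mark the transcription factor subunits Hif1a and Epas1 for destruction by the Vhl ubiquitin ligase. When oxygen is scarce the subunits persist, pair with Arnt and bind short DNA elements near genes for glucose uptake, glycolysis, mitophagy, blood vessel growth and the hydroxylases themselves. Macrophages are known to gather in poorly perfused regions of tumors, where this program is active. Inflammatory signals and lactate can also raise parts of it, and oxygen was not measured in these cells, so "hypoxic" refers to the marker genes alone.

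The DNA letters that the HIF dimer is known to read, ACGTG or GCGTG, can be seen upstream of several genes of the rule. Promoters of Bnip3, Slc2a1 and Ankrd37 from the rule, and of Adm, which ranked first outside it by the smaller ratio of both libraries, are shown because they hold the letters within 250 bases before the RefSeq start (build GRCm38.p6). Each is printed 5′ to 3′ on the strand of its gene, stopping before any base that GENCODE M21 marks as exon, with matches on either strand in capitals. For Ankrd37 the RefSeq start lies inside the longer GENCODE gene, so its stretch is upstream of the RefSeq transcript only.
Bnip3 (chr7:138909520-138909756, minus strand): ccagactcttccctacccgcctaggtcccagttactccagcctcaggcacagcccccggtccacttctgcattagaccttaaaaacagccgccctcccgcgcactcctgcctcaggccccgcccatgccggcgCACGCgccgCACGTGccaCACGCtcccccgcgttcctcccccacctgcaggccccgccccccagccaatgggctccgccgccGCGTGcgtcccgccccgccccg
Slc2a1 (chr4:119108495-119108710, plus strand): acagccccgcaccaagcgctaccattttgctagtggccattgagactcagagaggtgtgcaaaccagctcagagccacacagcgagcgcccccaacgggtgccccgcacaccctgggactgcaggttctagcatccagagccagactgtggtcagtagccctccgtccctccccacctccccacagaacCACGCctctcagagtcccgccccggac
Ankrd37 (chr8:45999868-46000100, minus strand): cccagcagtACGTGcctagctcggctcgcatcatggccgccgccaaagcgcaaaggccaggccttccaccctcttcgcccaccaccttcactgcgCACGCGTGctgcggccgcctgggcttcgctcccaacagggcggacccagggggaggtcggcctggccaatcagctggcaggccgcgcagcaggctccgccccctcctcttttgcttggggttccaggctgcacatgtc
Adm (chr7:110627407-110627656, plus strand): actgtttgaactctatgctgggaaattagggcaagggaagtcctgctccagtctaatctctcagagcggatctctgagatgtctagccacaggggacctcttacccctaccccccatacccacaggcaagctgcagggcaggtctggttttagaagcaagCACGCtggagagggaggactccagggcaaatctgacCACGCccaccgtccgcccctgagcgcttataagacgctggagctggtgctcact
Within these stretches Bnip3 holds 5 matches, of which a pair overlaps, Ankrd37 holds 3, of which a pair overlaps, Adm holds 2 and Slc2a1 holds 1. The first listed promoter of Vegfa holds none and its other one 2, and a promoter of Ndrg1 is not shown. Such letters are common: they stood in 38.6% of 32851 promoters of the table, in 59.4% of the 6969 promoters matched to genes measured here and in 77.6% of 76 matched promoters of the oxygen-response genes listed below. Among 194 matched promoters of genes at least 2-fold higher in members of both libraries the share was 55.7%, and among 585 of genes at least 2-fold lower it was 53.2%. For the oxygen-response genes at least 2-fold higher in both libraries it was 68.6% of 35 matched promoters. A match is a description of the letters and does not show binding.

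The cut lay at 0.297% of a cell's UMIs. The 10 members just inside it had 0.297% to 0.299%, the 10 cells just outside 0.296% to 0.297%, and 395 cells, 170 of them members, lay within 10% of the cut. The members are thus the top of a continuous range of this share. Whether other genes set them apart as a cluster was not tested. The median share was 0.380% in members and 0.0492% in the remaining cells, and the highest member had 1.32%. Most members carried the whole signature: 462 had a UMI of all 5 genes, 232 of 4, 23 of 3 and 1 of 2. In the remaining cells, 2329 of 13633 also had all 5.

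Bnip3 (chr7:138890836-138909519), which encodes a receptor for mitophagy, had 955 CPM in Fcmr+/+ members and 983 in Fcmr-/- members, against 187 and 175 in the remaining cells. Ndrg1 (chr15:66929318-66969640), a stress-responsive gene of the N-myc downregulated family, had 1266 and 1122 CPM against 194 and 149.8. For Slc2a1 (chr4:119108711-119137983), the glucose transporter GLUT1, the values were 1018 and 1148 against 122 and 132. These genes carried most of the choice. Ndrg1 had the most UMIs of the 5 in 124 of 288 Fcmr+/+ and 139 of 430 Fcmr-/- members, Slc2a1 in 80 and 135, and Bnip3 in 63 and 123. Vegfa (chr17:46016993-46032369), the angiogenic growth factor, had 417 CPM in Fcmr+/+ members and 598 in Fcmr-/- members, against 99.8 and 139.9. Ankrd37 (chr8:45996902-46005707), which encodes a small ankyrin repeat protein, had 332 and 203 against 45.1 and 32.8. The makeup of the signature differed somewhat between the libraries: Vegfa gave 10.5% of the marker UMIs in Fcmr+/+ and 14.8% in Fcmr-/- members, and Ankrd37 gave 8.32% and 5.01%. All 5 are protein-coding genes, and coordinates of genes are from GENCODE M21 on GRCm38.

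**Figure D1:**
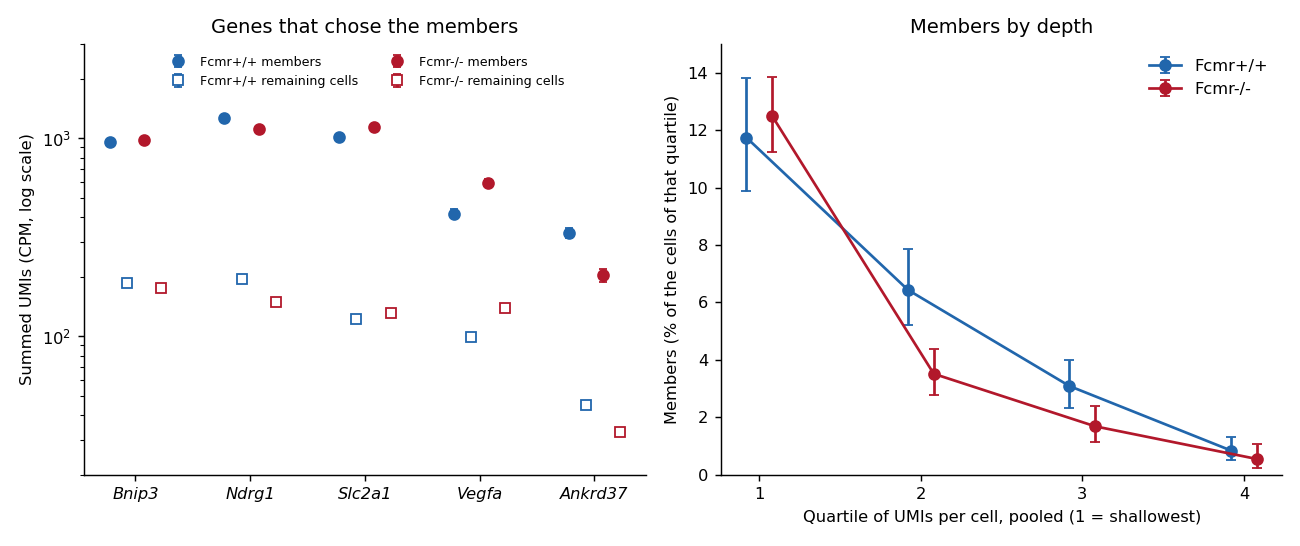
The left panel plots the CPM of the 5 genes of the rule on a log scale in members (filled circles) and remaining cells (open squares) of each library with 95% Poisson intervals, and the right panel the percent of cells that were members in each quartile of UMIs per cell with 95% Clopper-Pearson intervals. Members lie above the remaining cells for every gene, as the rule fixes, and their share falls from 11.7% and 12.5% in the shallowest quartile to 0.844% and 0.549% in the deepest.

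Members made up 288 of 6352 Fcmr+/+ cells, or 4.53% (interval 4.04 to 5.07), and 430 of 7999 Fcmr-/- cells, or 5.38% (interval 4.89 to 5.89). The libraries held 131062107 and 125802196 UMIs. Members were shallower than the rest, with a median of 10473.5 UMIs against 18366 in Fcmr+/+ and 7358.5 against 13310 in Fcmr-/-, and with a median of 2540.5 genes against 3809 and 2149.5 against 3229. The median percentage of mitochondrially encoded UMIs was 3.05 in Fcmr+/+ members against 4.76 in the remaining cells, and 3.04 against 4.13 in Fcmr-/-. By quartile of UMIs per cell over both libraries, members were 11.7%, 6.44%, 3.09% and 0.844% of Fcmr+/+ cells and 12.5%, 3.52%, 1.69% and 0.549% of Fcmr-/- cells, from shallow to deep. The higher share of the whole Fcmr-/- library was seen in the shallowest quartile only, and in the other 3 the Fcmr+/+ share was the higher one. These orders were not tested. When cells were thinned to 5851 UMIs before ranking, 50% of members came from Fcmr-/-, against 59.9% without thinning, but the thinning left out 88 members and 271 remaining cells of Fcmr-/- as too shallow and 0 cells of Fcmr+/+. The part of depth in the results below was not tested beyond the values within quartiles. Droplets marked by the same barcode in both libraries numbered 73, and 5 members held one. No member was lost to the filters, since 0 of the 58 removed cells had a share past the cut.

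The members held transcripts of macrophages. Each of the 718 had at least 5 UMIs of an 11-gene macrophage list, a low limit given the level of Lyz2, with a median of 111.5 UMIs in Fcmr+/+ and 85.5 in Fcmr-/- members against 305 and 245 in the deeper remaining cells, and the list had a median log2 ratio of -0.37 and -0.39, near that of all genes (-0.32 and -0.25). The sort markers differed from each other. Fcgr1, which encodes CD64, had 248 CPM in Fcmr+/+ members and 384 in Fcmr-/- members against 250.4 and 395, whereas Mertk, the efferocytosis receptor, had 23.8 and 13.3 against 63.9 and 49.9. Lyz2, which encodes lysozyme and was the most abundant gene of the list, had 3608 and 3512 CPM against 9094 and 9186.

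Lists for other cells of a tumor were low. The 10 measured genes of T and NK cells summed to 4.48 CPM in Fcmr+/+ members against 4.28 in the remaining cells and to 11.7 in Fcmr-/- members against 18.9, with Cd3d, Cd3e and Cd3g at 0 UMIs in the former, and the 6 genes of mast cells were at 0 in both. Fibroblast and pericyte genes summed to 2.80 and 4.96 CPM, B and plasma cell genes to 3.08 and 4.70, and dendritic cell genes to 7.29 and 13.3, below 22.5 and 33.1 in the remaining cells. Melanoma genes, which a phagocyte can carry after engulfing tumor cells, summed to 105 CPM in Fcmr+/+ members against 83.2 and to 122 in Fcmr-/- members against 114. Their most abundant gene was Mitf, which macrophages also express, followed by the melanin synthesis gene Dct with 28.3 and 28.4 CPM against 14 and 22.4 in Fcmr+/+ and Fcmr-/- cells, while Gpr143 was at 0 UMIs. At least 2 UMIs of that list were found in 28.8% of Fcmr+/+ and 24.4% of Fcmr-/- members, fewer than the 40.9% and 41.9% of the deeper remaining cells. Neutrophil genes summed to 76.5 and 205 CPM against 55.8 and 119.7, of which Mmp8 gave 46.5 and 164, while S100a9 and Ly6g were at 0 UMIs in members of both libraries. Endothelial genes summed to 16.3 and 42.8 CPM against 7.94 and 20.9, led by Pecam1 at 10.1 and 18.5, with Cldn5, Tek and Emcn at 0. Genes of red cells and platelets summed to 168 CPM in Fcmr+/+ members against 76.4 and to 60.5 in Fcmr-/- members against 47.4, nearly all of it Ppbp in members, with Alas2, Hbb-bt and Gp9 at 0. The part of such cells in the results below was not tested.

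Over all genes, more were lower than higher in members. UMIs were summed over the members and over the remaining cells of a library and scaled to CPM, 1 CPM was added before log2 ratios, and genes that reached 5 CPM in members or in remaining cells were kept, without the 5 genes of the rule. A gene was called at a 2-fold ratio. In Fcmr+/+, 326 of 8769 genes were higher (3.72%) and 1114 lower (12.7%). In Fcmr-/-, 463 of 8783 were higher (5.27%) and 1088 lower (12.4%). Both libraries had 258 of 8580 genes higher (3.01%) and 714 lower (8.32%), and 0 genes were 2-fold higher in one library and 2-fold lower in the other. The median log2 ratio over all genes was -0.32 in Fcmr+/+ and -0.25 in Fcmr-/-, so ratios are to be read against these values. After a shift by that median, 622 genes were higher and 469 lower in Fcmr+/+, and 720 higher and 626 lower in Fcmr-/-. The counts of list genes below stand beside these shares without being read against them, since the same cells chose the members. The 5 genes of the rule are left out of every list.

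Among the genes of oxygen sensing, Egln3 had the highest ratio. Egln3 (chr12:54178981-54203860), which encodes PHD3, had 337 CPM in Fcmr+/+ members and 333 in Fcmr-/- members, against 44.8 and 45.1. The log2 ratios were 2.89 (interval 2.80 to 2.98) and 2.86 (interval 2.77 to 2.95). Egln1, which encodes PHD2, the main oxygen sensor, had 129.7 and 182 CPM against 46.2 and 48.4, whereas Egln2 had 28.9 and 25.6 against 42.1 and 33.0 and thus went the other way. The transcription factor subunits had smaller ratios than many of their target genes: Hif1a had log2 ratios of 0.57 and 0.84, Arnt of 0.38 and 0.58, and Epas1, which encodes HIF-2 alpha, was low throughout at 5.32 and 7.31 CPM in members. Vhl had 0.87 and 1.45. Cited2, a feedback inhibitor that competes with HIF for its coactivator, had 464 and 343 CPM against 156 and 159.7. In all, 4 of 11 genes of this list past the filter were 2-fold higher in Fcmr+/+ and 5 of 11 in Fcmr-/-, and 0 were 2-fold lower in either.

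Genes of most steps of glycolysis were higher. Of 19 genes past the filter, 12 were 2-fold higher in Fcmr+/+ and 11 in Fcmr-/-, 0 were 2-fold lower, and the median log2 ratio was 1.09 and 1.02. Together they held 19742 CPM of the transcripts of Fcmr+/+ members against 9450.2 of the remaining cells, and 18928 against 9663 in Fcmr-/-. Hk2, the inducible hexokinase, had 261 and 319 CPM against 104 and 102. Among the enzymes further down, the log2 ratios were, for Gpi1 1.33 and 1.29, Aldoa 1.12 and 1.02, Tpi1 1.09 and 1.05, Gapdh 1.17 and 1.03, and Ldha, which makes lactate, 1.08 and 1.01. Pgam1 (0.83 and 0.76) and Pkm (0.76 and 0.68) stayed under 2-fold in both libraries and Eno1 in Fcmr-/- (1.12 and 0.90). Pfkfb3, which makes the activator of phosphofructokinase, had 1.48 and 1.64. Among other forms of these enzymes, Hk1 was also higher, with 1.47 and 1.48. Hk3 had 66.7 and 98.9 CPM against 80.1 and 135, and Pfkfb4, a HIF target in other cells, had 6.45 and 7.57 against 10.3 and 9.93. Among 6 genes of lactate export and pH, Bsg, the chaperone of lactate transporters, was 2-fold higher in both libraries (log2 ratio 1.13 and 1.10), the exporter Slc16a3 had 0.73 and 0.96, and Slc4a7, a bicarbonate transporter, had -0.98 and -1.02. Car9, a classical HIF target in epithelial tumors, had 7.29 and 8.09 CPM against 7.78 and 8.29.

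Several genes that restrain mitochondria or mark them for removal were also higher. Of 10 genes past the filter, 5 were 2-fold higher in Fcmr+/+ and 6 in Fcmr-/-, 0 were 2-fold lower, and the median log2 ratio was 1.13 and 1.23. Bnip3l, which encodes the mitophagy receptor NIX, had 482 and 519 CPM against 201 and 194, and Higd1a, a hypoxia-inducible protein of the respiratory chain, had 556 and 639.6 against 203 and 220.0. Both respiratory subunits of the list, which hypoxia is known to induce, were low but higher in members, with Ndufa4l2 at 8.13 and 14.6 CPM against 1.75 and 1.95 and Cox4i2 at 18.8 and 17.0 against 5.53 and 6.02. Mxi1, a Myc antagonist, had log2 ratios of 1.56 and 2.15. Pdk1, the kinase that shuts pyruvate out of the citric acid cycle, had 0.57 and 0.63, under 2-fold. Pdk3 (0.02 and 0.16) and Lonp1 (0.08 and 0.05) differed little, and Fundc1 went the other way at -0.37 and -0.46.

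Several genes of fuel storage were higher as well. Of 9 genes of glycogen and lipid storage past the filter, 4 were 2-fold higher in Fcmr+/+ and 6 in Fcmr-/-, with medians of 0.87 and 1.27. The lipid droplet gene Hilpda, which blocks triglyceride breakdown, had 1656 and 1828 CPM against 534 and 561. Gys1, which makes glycogen, had log2 ratios of 1.66 and 1.98, the branching enzyme Gbe1 1.40 and 1.61, and the mitochondrial adenylate kinase Ak4 2.14 and 2.45. Plin2 had 0.67 and 0.49 and Pgm1 -0.44 and 0.03, under 2-fold. Enzymes that use oxygen as a substrate, and protein-folding oxidases, gave 4 of 10 genes 2-fold higher in Fcmr+/+ and 7 of 11 in Fcmr-/-, with 1 and 0 lower. Ero1l (chr14:45283087-45318771), the endoplasmic reticulum oxidase that makes disulfide bonds, had 986 CPM in Fcmr+/+ members and 1189 in Fcmr-/- members against 136 and 168. The collagen hydroxylase P4ha2 had log2 ratios of 1.55 and 1.93 and the histone demethylase Kdm5b 1.70 and 1.87. Plod1, a lysyl hydroxylase, was lower instead, at -1.09 and -0.88.

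The list of other HIF target genes gave 14 of 24 genes 2-fold higher in Fcmr+/+ and 19 of 24 in Fcmr-/-, and 1 lower in each. Adm (chr7:110627661-110629820), which encodes the vasodilator adrenomedullin and whose promoter is printed above, had 117 CPM in Fcmr+/+ members and 103 in Fcmr-/- members, against 9.56 and 6.06. Pgf, placental growth factor, a ligand of the Vegf receptor Flt1, had 60.8 and 50.1 against 5.87 and 2.91. These were the highest ratios of the list, with log2 ratios of 3.48 and 3.87 for Adm and of 3.17 and 3.71 for Pgf. Selenbp1, a sulfur metabolism enzyme, had 2.17 and 2.46, the mTOR inhibitor Ddit4 had 1.49 and 2.27, the repressor Bhlhe40 had 1.54 and 1.80, and Cd274, which encodes the T cell checkpoint ligand PD-L1, had 1.72 and 1.51. Tfrc, the transferrin receptor that takes up iron, was the 1 gene lower by 2-fold, with 25.8 and 19.3 CPM against 135 and 70.1. Hmox1, which breaks down heme, stayed under 2-fold, with 3616 and 2304 against 2980.0 and 1702. Its median over cells was 1656 CPM in Fcmr+/+ members against 1168, and 1333 in Fcmr-/- members against 681. Angptl4 was under 3 CPM in every group. Over the 7 oxygen-response lists together, 44 of 89 genes past the filter were 2-fold higher in Fcmr+/+ and 55 of 90 in Fcmr-/-, 2 were lower in each, and 43 of the 89 genes tested in both libraries were higher in both. The median log2 ratio was 1.00 and 1.09.

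**Figure D2:**
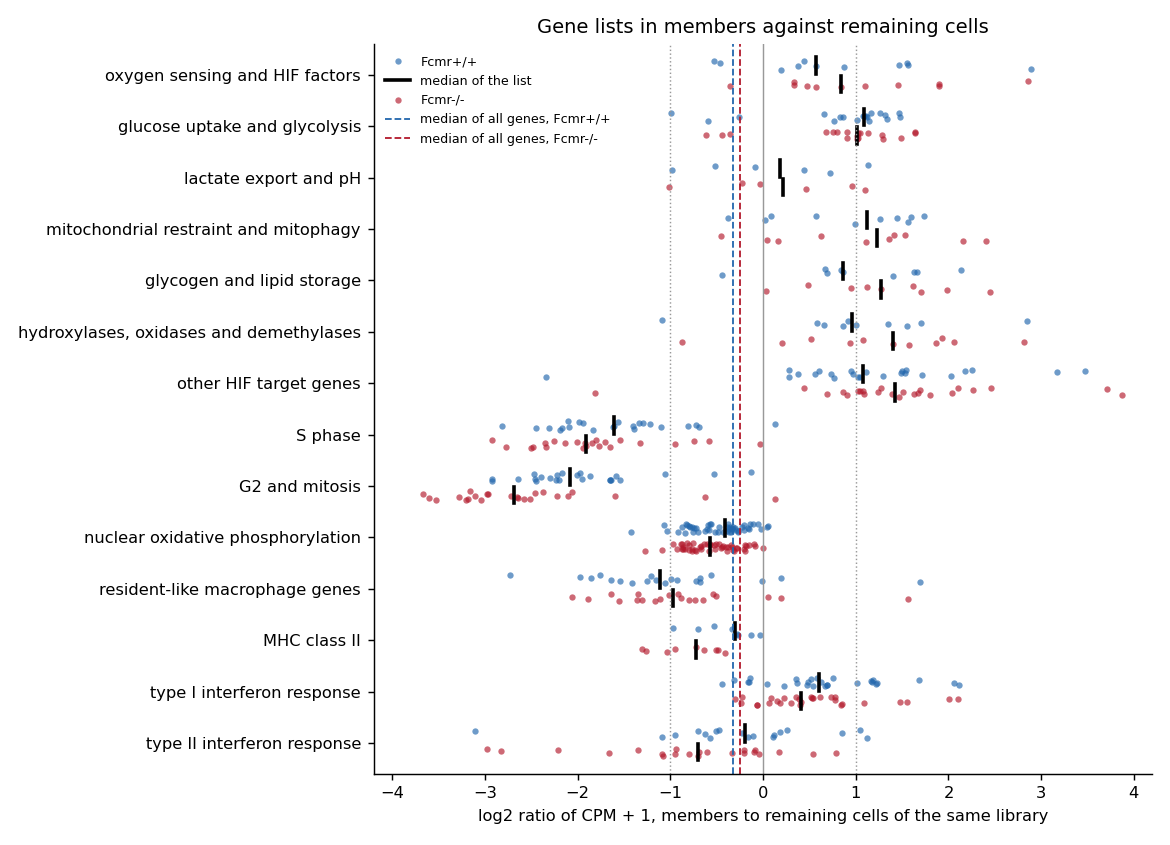
Each point is the log2 ratio of members to remaining cells of 1 gene, in rows by list, for Fcmr+/+ (blue) and Fcmr-/- (red), with the list's median as a black bar, dotted lines at 2-fold and dashed lines at the median over all genes. Medians of the oxygen-response lists lie to the right of the all-gene median, those of the cell cycle furthest to the left of the lists drawn at -1.61 to -2.69, and oxidative phosphorylation at -0.41 and -0.57.

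Several of the genes with the highest ratios lay outside the oxygen-response lists. The 12 highest, ranked by the smaller ratio of both libraries over 2792 genes that reached 50 CPM in each library, were Adm, Pgf, Nos2, Egln3, Tnfrsf9, Ero1l, Inhba, Mgarp, Sdc1, Rhov, Slc7a2 and Selenbp1. Nos2 (chr11:78920787-78960254), the inducible nitric oxide synthase, had 93.6 CPM in Fcmr+/+ members and 284 in Fcmr-/- members, against 6.24 and 32.7. Inhba, the subunit of activin A, had 198 and 496 against 21.3 and 77.1. Both genes were higher in members of each library and higher in Fcmr-/- than in Fcmr+/+ cells of either kind. Slc7a2 brings in arginine, the substrate of Nos2, and had log2 ratios of 2.56 and 2.24. Tnfrsf9, which encodes the costimulatory receptor 4-1BB, had 2.82 and 3.37, the heparan sulfate proteoglycan Sdc1 2.66 and 2.36, the mitochondrial protein gene Mgarp 2.47 and 2.5, and the small GTPase gene Rhov 2.35 and 2.49.

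**Figure D3:**
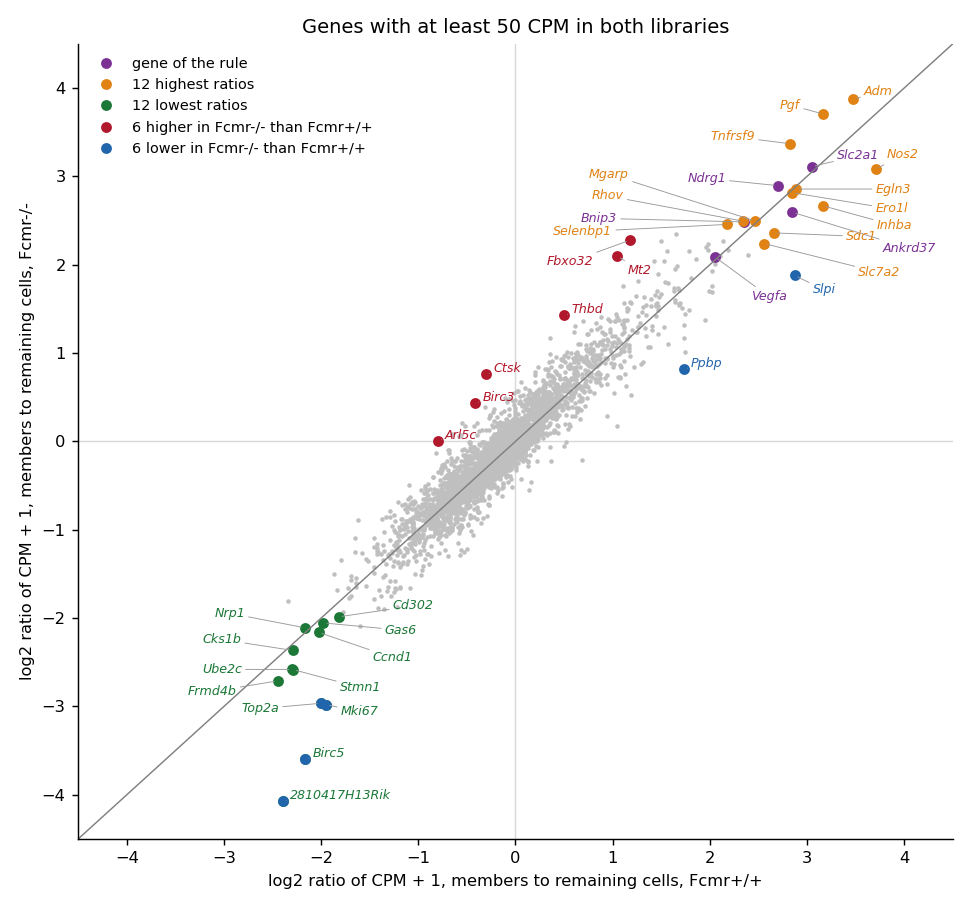
Every point is a gene that reached 50 CPM in members or remaining cells of both libraries, placed by its log2 ratio of members to remaining cells in Fcmr+/+ (x) and Fcmr-/- (y), with the line of equal ratios. Genes of the rule and the 12 highest ratios lie at the top right, the 12 lowest at the bottom left, and 4 of the latter (2810417H13Rik, Birc5, Top2a and Mki67, drawn in blue) lie further below the line of equal ratios than the others.

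Several regulators of immunity were higher. Of 17 immune regulators, 7 were 2-fold higher in Fcmr+/+ and 8 in Fcmr-/-, and 0 were 2-fold lower. Nt5e, which encodes CD73 and makes adenosine, had 39.8 and 59.0 CPM against 5.50 and 6.18, whereas Entpd1, which encodes CD39 and acts before it, had 47.1 and 47.8 against 82.8 and 94.7. Both prostaglandin E2 enzymes were higher, with log2 ratios of 1.40 and 1.31 for Ptgs2 and of 3.12 and 2.66 for Ptges. Il10, the inhibitory cytokine, had 59.7 CPM in Fcmr+/+ members against 118, and 45.4 in Fcmr-/- members against 49.7. Among 18 matrix and growth factor genes, 3 were 2-fold higher in Fcmr+/+ and 4 in Fcmr-/-. Mmp12, macrophage elastase, had 2309 and 3298 CPM against 584 and 731, and the adhesive protein gene Thbs1 had 2335 and 3147 against 854 and 1071. Igf1 and Timp2 were lower, with log2 ratios of -0.75 and -0.81 and of -0.91 and -0.80.

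Inflammatory cytokines had no common direction. Of 18 genes, 2 were 2-fold higher and 2 lower in Fcmr+/+, and 3 higher and 4 lower in Fcmr-/-. Among chemokines, Cxcl3, which attracts neutrophils, had log2 ratios of 1.95 and 1.38 and Cxcl2 of 0.84 and 0.71, while the monocyte chemokines Ccl8 and Ccl12 had -1.35 and -1.90 and -1.10 and -1.35, and Ccl5, which attracts T cells, had 1.19 and 0.53. Tnf had 256 and 194 CPM against 259 and 133. In the integrated stress response, which senses amino acid shortage and unfolded proteins, 5 of 14 genes were 2-fold higher in Fcmr+/+ and 3 in Fcmr-/-. In each library 1 was 2-fold lower, Vegfb at -1.17 in Fcmr+/+ and Psat1 at -1.45 in Fcmr-/-. Trib3, a pseudokinase of that response, had 2.27 and 2.23, and the transcription factor Atf4 of the response 1.06 and 0.98.

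Interferon genes were listed by type, and the types were not tested against each other. Of 28 type I interferon genes past the filter in Fcmr+/+, 9 were 2-fold higher, and of 29 in Fcmr-/-, 5 were, with 0 lower in either. The median log2 ratio of the list was 0.60 and 0.41. In the 2 deeper depth quartiles of Fcmr-/- it was -0.24 and -0.10, where the median over all genes was -0.20 and -0.35. Rsad2, which encodes the antiviral enzyme viperin, had 689 CPM in Fcmr+/+ members and 964 in Fcmr-/- members against 159 and 224, and Ifit1, an RNA-binding effector, had 289 and 250.3 against 68.6 and 61.5. The median cell differed less: the summed list had a median over cells of 913 CPM in Fcmr+/+ members against 918, and of 1668 in Fcmr-/- members against 1578. Type II interferon genes gave 2 of 18 higher and 2 lower in Fcmr+/+, and 0 of 22 higher and 7 lower in Fcmr-/-. Cxcl9, the chemokine induced by interferon gamma, had 0.841 CPM (3 UMIs) in Fcmr+/+ members against 14.9 and 40.4 in Fcmr-/- members against 190.2. Cxcl10, the most abundant gene of the list, had 305 and 309 CPM against 147 and 274. The immunoproteasome gene Psmb10 had log2 ratios of -1.09 and -1.66. Among MHC class II genes, 0 of 8 were 2-fold lower in Fcmr+/+ and 3 of 9 in Fcmr-/-, and every one of these ratios lay below 0. The median of that list was -0.30 in Fcmr+/+ and -0.73 in Fcmr-/-, and after the shift by the all-gene median it was 0.02 and -0.47, so its direction in Fcmr+/+ depends on the scaling. The type II interferon list likewise had -0.20 and -0.70 before the shift and 0.12 and -0.44 after it. Whether the libraries differ in these lists was not tested.

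Most genes of the cell cycle lists were lower. In S phase, 19 of 23 genes were 2-fold lower in each library, and in G2 and mitosis 22 of 24 were, with 0 higher in either. Mki67, the proliferation marker, had 21.0 CPM in Fcmr+/+ members and 7.57 in Fcmr-/- members, against 83.9 and 66.6. Stmn1, which destabilizes microtubules, had 51.3 and 32.1 against 255 and 197, and the replication helicase gene Mcm5 had 6.16 and 7.83 against 34.4 and 34.4. Of the 12 lowest ratios, 7 were genes of proliferation (2810417H13Rik, also known as Pclaf, Ube2c, Cks1b, Stmn1, Birc5, Top2a and Mki67), and Ccnd1, cyclin D1, had log2 ratios of -2.03 and -2.16. Pcna, a replication clamp that also serves in DNA repair, was closer to the rest, at -0.69 and -0.58. The median cell differed less here too, with 156 CPM of the G2 and mitosis list in Fcmr+/+ members against 181, and 148 against 144 in Fcmr-/-.

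Many genes of resident-like macrophages, but not all, were also lower. Of 20 such genes, 11 were 2-fold lower in Fcmr+/+ and 10 in Fcmr-/-, and 1 was higher in each. Gas6, the bridging ligand of Mertk, had 67.5 and 34.7 CPM against 269 and 147. The complement genes C1qa, C1qb and C1qc had log2 ratios of -1.25, -1.0 and -1.16 in Fcmr+/+ and of -1.35, -1.11 and -1.30 in Fcmr-/-. Mrc1, which encodes the mannose receptor CD206, had 441 and 314 against 920.4 and 637. The gene that went the other way was Cx3cr1, the fractalkine receptor, with 74.3 and 94.7 CPM against 22.2 and 31.3. Outside that list, Frmd4b (chr6:97286867-97617541), a scaffold gene that had the lowest ratio by the rule, had 19.3 and 15.1 CPM against 109.7 and 105, the semaphorin and Vegf coreceptor Nrp1 had 73.4 and 78.3 against 334 and 341, and Cd302, a C-type lectin receptor, had log2 ratios of -1.82 and -1.99. Monocyte genes showed no common direction, with 2 of 14 2-fold higher in each library and 2 lower in Fcmr+/+ and 1 in Fcmr-/-, and a median of -0.14 in Fcmr+/+ that became 0.18 after the shift by the all-gene median. Itga4, an integrin of circulating cells, was lower in both at -1.81 and -1.81, and Plac8 was higher at 1.06 and 1.16.

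Few genes of oxidative phosphorylation differed by 2-fold. Of 50 nuclear genes of oxidative phosphorylation, 3 were 2-fold lower in Fcmr+/+ and 2 in Fcmr-/-, 0 were 2-fold higher, and the median log2 ratio was -0.41 and -0.57 against -0.32 and -0.25 over all genes. Ndufa4, a subunit of cytochrome c oxidase, stood out at 169 and 179.5 CPM against 457 and 435, opposite to its relative Ndufa4l2. The 13 mitochondrially encoded genes had medians of -0.59 and -0.50, with 2 lower by 2-fold in Fcmr+/+ and 1 in Fcmr-/-. The 16 of the citric acid cycle had -0.58 and -0.53, with 3 lower by 2-fold in Fcmr+/+ and 4 in Fcmr-/-. Among the latter list, Idh3a had -1.43 and -1.48 and Idh2 -1.24 and -1.58. Sterol synthesis, whose enzymes need much oxygen, gave 8 of 19 genes 2-fold lower in Fcmr+/+ and 6 in Fcmr-/-, including Cyp51 at -1.74 and -1.61, but the oxygen-using Sqle was higher at 0.75 and 0.53. In iron handling, the export channel Slc40a1 had 10.6 and 8.35 CPM against 37.2 and 30.1, while the ferritin chain Fth1 took 46056 and 44417 CPM against 26036 and 24495.

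Lists of stress from handling lay above the median of all genes. Immediate-early genes, which dissociation of tissue can induce, gave 1 of 20 2-fold higher in Fcmr+/+ and 0 in Fcmr-/-, with 1 lower in each and list medians of 0.35 and 0.24 against -0.32 and -0.25 over all genes, with Fos at 1613 and 1338 CPM against 1229 and 1247 and Atf3 at 1.06 and 0.73. Of 18 heat shock and chaperone genes, 3 and 5 were 2-fold higher and 0 lower, led by the small heat shock gene Hspb1 at 1.79 and 2.16 and the inducible Hspa1b at 1.63 and 1.73. Lipid-associated genes had medians of 0.02 and 0.09, with Trem2 at -0.51 and -0.63 and the lipase Lpl at -1.29 and -1.58. The part of these lists in the other results was not tested.

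Egln3 and the summed glycolysis genes declined with the rank of the marker share on both sides of the cut, while some other levels did not follow the rank. Egln3 declined from 480 CPM in Fcmr+/+ cells of the top 1% to 306 in those ranked from 2.5% to 5%, 199 from 5% to 10%, 127 from 10% to 25%, 56.7 from 25% to 50% and 9.58 in cells ranked below 50%. In Fcmr-/- cells the same ranks had 455, 274, 249, 134, 53.8 and 9.95 CPM. Glycolysis genes declined from 22913 and 20499.7 CPM in the top 1% to 6989 and 7486 below 50%. Of the lower genes, Gas6 climbed from 40.3 and 30.6 CPM in the top 1% to 348 and 187 below 50%. C1qa climbed from 603 and 856 to 2667 and 2776. Genes of G2 and mitosis had 303 and 281 CPM in cells ranked from 5% to 10% against 271 and 193 in those just above the cut, but Fcmr+/+ cells from 1% to 2.5% had 359, so the member bins of Fcmr+/+ lay on both sides of that value. Mki67 had 28.4 and 24.4 CPM below the cut against 17.2 and 7.56 just above it, and 34.4 in Fcmr+/+ cells from 1% to 2.5%. Median UMIs per cell also climbed from 8450.0 and 6415 in the top 1% to 20500.5 and 15315.5 below 50%.

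**Figure D4:**
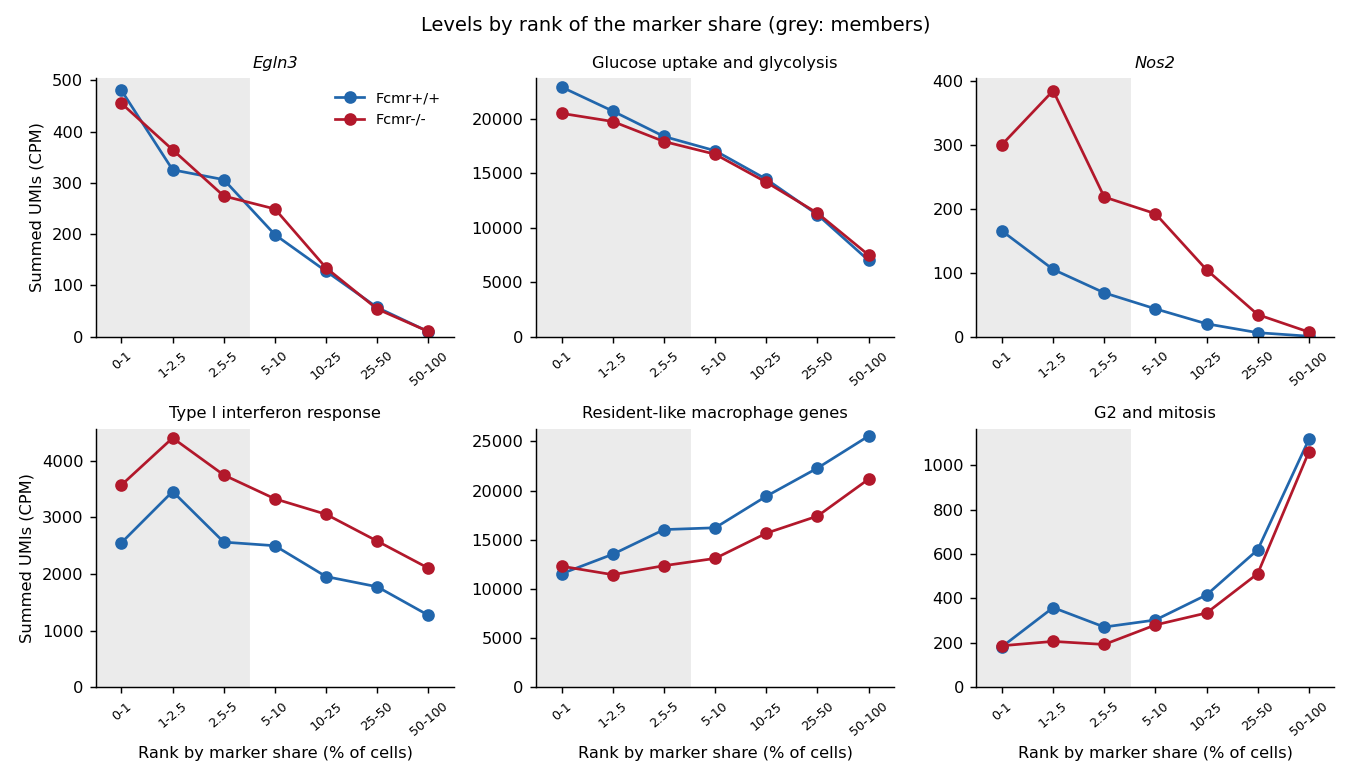
Summed CPM of 2 genes and 4 lists (y) in cells grouped by their pooled rank on the marker share (x, percent of cells from the top) for Fcmr+/+ (blue) and Fcmr-/- (red), with the bins of the members in grey. Egln3 and glycolysis decline from left to right, as does Nos2 except for a peak of 385 CPM in the second bin of Fcmr-/-, resident-like and mitotic genes are higher at the right than at the left, and the type I interferon list peaks in the bin from 1% to 2.5% at 3454 and 4399 CPM.

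Members differed from each other beyond the signature. Egln3 and Ero1l were spread more evenly over them than several other genes. The 10% of members with the most UMIs of a gene carried 30.5% of the Egln3 UMIs in Fcmr+/+ and 33.4% in Fcmr-/-, but 65.9% and 68.4% of those of Adm, 66.5% and 56.6% of Nos2, 76.8% and 73.7% of Rsad2 and 92.6% and 90.6% of Pgf. With every cell thinned to 5851 UMIs, which left out 88 Fcmr-/- members and 271 remaining Fcmr-/- cells, an Egln3 UMI was found in 76.4% of Fcmr+/+ and 72.5% of Fcmr-/- members against 19.0% and 18.9% of the remaining cells. Without thinning the shares were 87.8% and 80.0% against 35.3% and 31.3%. Thinned shares for Nos2 were 25.7% (interval 20.7 to 31.1) and 45.0% (interval 39.7 to 50.5) of members against 2.67% and 9.61%, and for Adm 28.5% and 26.9% against 3.91% and 2.71%. An Mki67 UMI was found in 4.17% and 2.63% of members against 18.9% and 14.7%. No other cell type was sorted to give a background share, but a UMI of the melanocyte gene Mlana, which macrophages should lack, was found in 5.90% and 4.97% of thinned members and in 2.42% and 3.40% of the remaining cells. The Mki67 shares of members lay below the first of these pairs, so they are not read as expression, and in the remaining cells the Adm shares of both libraries and the Nos2 share of Fcmr+/+ lay near the second and are not read as expression either.

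Rsad2 and Ifit1 were carried by the same cells more than other pairs examined. Across cells of 1 library, as a description over cells that share depth and signature, the Spearman correlation of Rsad2 with Ifit1 was 0.62 in 288 Fcmr+/+ and 0.64 in 430 Fcmr-/- members. Nos2 with Inhba gave 0.27 and 0.34. A UMI of Nos2 or Inhba was found in 151 Fcmr+/+ and 287 Fcmr-/- members. Compared with the other members, which by that choice had none, they held more of the chemokine Cxcl2 (8478 CPM against 3553 in Fcmr+/+, 6586 against 3244 in Fcmr-/-), of the cytokine Il1b (2591 against 874, 3583 against 1465) and of Tnfrsf9 (104 against 34.5, 192 against 38.1), and less C1qa (679.8 against 1268, 743 against 1263). Genes of the rule showed smaller differences between them: Slc2a1 had 1097 CPM against 935 in Fcmr+/+ and 1107 against 1239 in Fcmr-/-, and Vegfa 476 against 355 and 591 against 615. Median depth was 9990.0 UMIs against 10598 and 7448 against 7223. Members with a UMI of Adm, 112 in Fcmr+/+ and 136 in Fcmr-/-, held less Il1b than those without (1185 CPM against 2168, 1894 against 3472) and more Mmp12 (2882 against 1892, 4252 against 2780.4). Median depth with and without an Adm UMI was 11328.5 against 9975.5 UMIs in Fcmr+/+ and 7721 against 7261.5 in Fcmr-/-. These groups were formed from the same counts and carry no test.

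Between the libraries, 0 of 8580 genes tested in both were past 2-fold in opposite directions. Among genes that reached 50 CPM in each library, those whose ratio was higher in Fcmr-/- by the largest margin were Fbxo32, a ubiquitin ligase of atrophy, with log2 ratios of 1.18 in Fcmr+/+ and 2.28 in Fcmr-/-, Ctsk, the collagen-degrading cathepsin K, with -0.31 and 0.76, and Mt2, a metallothionein, with 1.05 and 2.10. For Mt2 the remaining cells differed more than the members: 433 CPM in Fcmr+/+ and 109.7 in Fcmr-/-, against 895 and 473 in members. Thbd, thrombomodulin, had 0.50 and 1.43, Birc3, an inhibitor of apoptosis, -0.42 and 0.44, and the small GTPase Arl5c -0.80 and 0.01. On the other side were 4 cell cycle genes, led by 2810417H13Rik with -2.40 and -4.07 on 44 and 14 UMIs in members, and 2 secreted proteins. Slpi, a protease inhibitor, had 368 and 246 CPM against 49.4 and 66.0, and the platelet chemokine gene Ppbp had 168 and 58.7 against 49.7 and 32.8. The 10% of members with the most UMIs carried 87.8% and 78.9% of the Slpi UMIs and 97.8% and 100% of the Ppbp UMIs. With 1 library per genotype, these differences were not tested.

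Because members were shallow, ratios were also taken within quartiles of depth. Egln3 had log2 ratios of 2.05, 2.55, 2.40 and 2.67 in Fcmr+/+ from the shallowest to the deepest quartile and of 2.07, 2.47, 2.75 and 1.78 in Fcmr-/-, and Adm had 3.60, 2.66, 3.36 and 4.0, and 3.68, 3.03, 3.52 and 4.59. Nos2 ranged from 2.47 to 3.29 and from 1.96 to 3.68. Of the lower genes, Gas6 had -2.64, -1.59, -1.36 and -1.19 in Fcmr+/+ and -2.24, -1.27, -1.38 and -1.03 in Fcmr-/-, and Mki67 had -1.49, -1.35, -1.78 and -0.48 and -1.56, -1.07, -3.80 and -3.38. The deepest quartile held 18 Fcmr+/+ and 8 Fcmr-/- members, so its values rest on few cells. The Fcmr-/- values of Mki67 in quartiles 3 and 4 each rest on 2 UMIs in members. Over the oxygen-response lists, 31, 38, 43 and 34 genes were 2-fold higher in Fcmr+/+ and 38, 46, 43 and 52 in Fcmr-/-. Calls over all genes also moved with the quartile. In Fcmr-/- they went from 281 higher and 682 lower in the shallowest to 762 and 2496 in the deepest. Shares of tested genes are not given by quartile, so the list counts are not compared between quartiles. The type I interferon list kept a median above 0 in all 4 quartiles of Fcmr+/+ but had -0.24 and -0.10 in the 2 deeper quartiles of Fcmr-/-. The median over all genes in those 2 quartiles was -0.20 and -0.35, so the direction of the list there depends on the scaling.

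**Figure D5:**
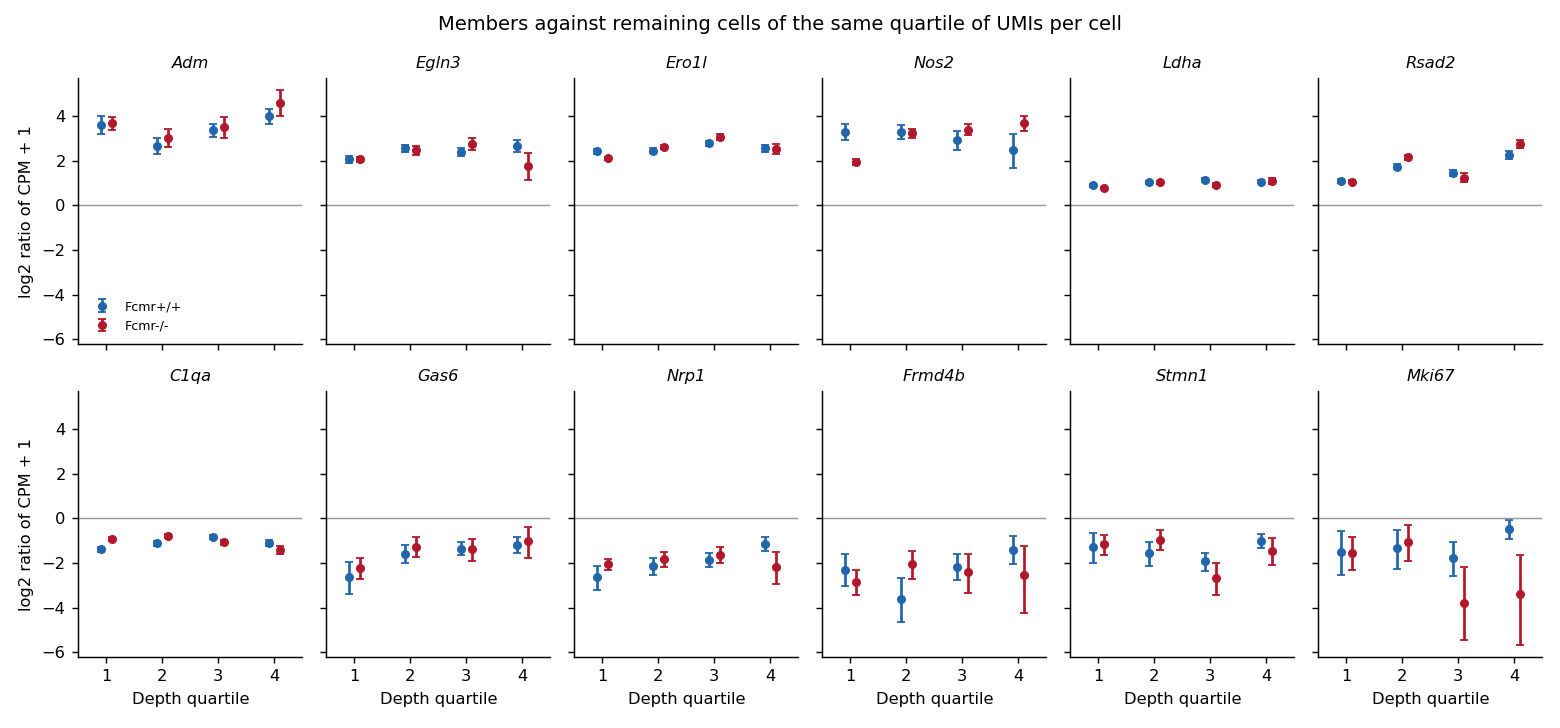
Each panel gives the log2 ratio of members to remaining cells of the same quartile of UMIs per cell (x, 1 the shallowest) for 1 gene in Fcmr+/+ (blue) and Fcmr-/- (red), with 95% exact conditional binomial intervals. The 6 genes of the upper row lie above 0 and the 6 of the lower row below 0 in every quartile. Intervals are wide for Mki67 in quartiles 3 and 4 of Fcmr-/- and for Frmd4b in quartile 4.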

How the data were processed

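Single-cell RNA sequencing was performed by the authors on 1 library per genotype. UMI counts per gene and cell were deposited as filtered matrices of raw counts made with Cell Ranger, whose version the study's methods give as 2.0.1. Seurat 2.1.0 is also named in the submitters' processing notes. No scaling had been applied to the counts. Cells with 200 to 7000 genes and at most 30% mitochondrial UMIs were kept here (14351 of 14409 barcodes over 27998 genes), and no doublet caller was run. UMIs were summed over members and over remaining cells of each library, scaled to CPM, and compared as log2 ratios after adding 1 CPM, for genes that reached 5 CPM in members or in remaining cells. With 1 library per genotype no test was possible, and no p-value is given. Intervals are Poisson for counts, Clopper-Pearson for shares and exact conditional binomial for log2 ratios, at 95%, and cover counting error only. Of 601 list genes 597 were matched by symbol, and where identifiers shared a symbol (65 surplus identifiers) the one with the most UMIs kept it. The members, lists and comparisons were chosen with earlier results of these data known. Named genes were the 5 genes of the rule and Fcmr, list members, the 12 highest and 12 lowest ratios, and the 6 largest differences between libraries in each direction. The groups of members by a UMI of Nos2 or Inhba, or of Adm, were chosen after their values were seen. In total 25 alternative settings were tried, 5 of them chosen after seeing the data (4 depth quartiles and the removal of shared barcodes). Scripts were tested on simulated data and run with Python 3.11.15, numpy 2.4.6, scipy 1.17.1, pandas 2.3.3 and matplotlib 3.10.9.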

Additional observations from a re-analysis of the deposited data

Results flagged for a closer look

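Ctsk, which encodes the collagen-degrading protease cathepsin K, lay on opposite sides of equality in the libraries: the log2 ratio of members to remaining cells was -0.31 in Fcmr+/+ and 0.76 in Fcmr-/-, a difference of 1.07, but after the shift by the all-gene median they were 0.01 and 1.01. Birc3, an inhibitor of apoptosis, had -0.42 in Fcmr+/+ and 0.44 in Fcmr-/-, a difference of 0.85, and -0.10 and 0.69 after that shift. The median of the monocyte gene list was -0.14 in Fcmr+/+ and 0.21 in Fcmr-/-, a difference of 0.35, and after the shift it was above 0 in both. With 1 library per genotype, none of these 3 differences was tested.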

How the results depend on the processing

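No paired analysis was possible because each genotype has 1 library and the result comes from no test. The 12 highest and 12 lowest genes were picked as the extremes of these same ratios. A changed CPM filter cannot alter their values, so part of the following count was fixed in advance. The genes kept their direction in 1200 of 1200 ratios over 25 settings, and 1187 stayed past 2-fold. The exceptions were 12 values within depth quartiles (Tnfrsf9, Inhba and cell cycle genes, down to 0.02 for Tnfrsf9 in the deepest Fcmr+/+ quartile) and Top2a in Fcmr+/+ at -0.55 when cells had at most 5000 genes. List medians kept their sign in 1598 of 1660 cases, and the turns named here are not all of the others. The MHC class II, type II interferon and monocyte medians of Fcmr+/+ turned after the shift by the all-gene median. The type I interferon median of Fcmr-/- turned in the 2 deeper quartiles, without a shift, where the median over all genes was -0.20 and -0.35. Members under another rule shared 77.9% to 95.8% with those used. After thinning, which left out shallow cells of Fcmr-/- only, 50% of members came from Fcmr-/-. Counts of higher genes became 622 (Fcmr+/+), 720 (Fcmr-/-) and 481 (both) after the shift by the all-gene median, 281 and 762 in the shallowest and deepest Fcmr-/- quartiles, and 134, 165 and 167 in both libraries in quartiles 1, 2 and 4 (1 the shallowest). Counts of lower genes became, for Fcmr+/+, 609 with the top 10% of cells, 474 with 5 CPM added, 536 with at least 20 CPM and 469 shifted; for Fcmr-/-, 541 with 5 CPM added, 525 with at least 20 CPM, 626 shifted, and 682 and 2496 in quartiles 1 and 4; and for both, 446 with the top 10%, 309 with 5 CPM added, 338 with at least 20 CPM, 312 shifted, and 377 and 367 in quartiles 1 and 2. Lower oxygen-response genes, 2 in each library, became in Fcmr+/+ 1 with the top 10%, without Slc2a1 in the score or shifted, 4 with 0.1 CPM added or without mitochondrial and ribosomal genes, and 5 in quartile 4. In Fcmr-/- they became 1 without Vegfa, with at most 10% mitochondrial UMIs, ranked within each library, with 5 CPM added, with at least 20 CPM or shifted, and 5 and 4 in quartiles 3 and 4. Medians of sparse lists turned: erythroid and platelet genes in Fcmr+/+ to 1.73 with at least 20 CPM and to 1.04 and 2.40 in quartiles 3 and 4, and in Fcmr-/- T and NK genes to 1.71 and 1.99 in quartiles 2 and 3, B and plasma genes to 0.21 with no filter and dendritic genes to 0.60 in quartile 3. The cause was not tested. Depth limits the deepest quartile, which held 18 and 8 members.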
